A study of Mus musculus with 45 samples.

Results

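Mammary tumours that had grown in hosts exposed to 10 cGy of silicon ions were compared with mammary tumours of sham-irradiated hosts. The tumours were taken by sample title: 9 from 10 cGy hosts and 18 from sham hosts, which together are 27 of the 45 tumours of the series. Every tumour grew from Trp53-null mammary tissue of BALB/c donors, grafted at the inguinal site into wild-type BALB/c female hosts aged 10 weeks. The hosts had lost their own mammary epithelium at 3 weeks of age, and were irradiated or sham-treated 3 days before they received the tissue. Only the host received the dose, so loss of Trp53 and the BALB/c background were shared by both groups, and the comparison asks whether the irradiated host goes with a different tumour. Hosts were followed for 600 days, and each tumour was cut out at 1 cm3 and frozen, so the groups were matched on size and not on age. The labels do not say that each tumour came from a host of its own, and p-values measure the spread between these tumours, whatever its source.

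Silicon ions are densely ionizing particles, whose energy is deposited along narrow tracks, and 10 cGy is the lowest of the doses used in the series. In a mammary gland, luminal cells line the ducts and carry keratins 8 and 18, basal or myoepithelial cells surround them and carry keratins 5 and 14, and fibroblasts, fat cells, vessels and immune cells make up the stroma. Mouse mammary tumours that lack Trp53 are known to be varied in histology, with luminal, basal and spindle-cell forms, and Trp53 loss is known to permit gains and losses of chromosome segments. The stroma and its vessels and immune cells come mainly from the host and the epithelial tumour cells from the donor tissue. All values are from bulk tumour RNA, in which fewer cells of a type and less RNA per cell cannot be told apart.

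Values are log2 expression, so that a difference of 1 is a 2-fold difference, and each difference is given as the 10 cGy mean minus the sham mean with its standard error (SE). Of 18820 genes with a probe set of a single symbol, 11555 passed the filter on low values and were tested with limma. No gene passed the threshold (0 of 11555, or 0.0%, at a Benjamini-Hochberg adjusted p under 0.05), and the lowest adjusted p was 0.99996. At an unadjusted p under 0.05 limma gave 349 genes, 3.02% of those tested, of which 202 were higher (1.75%) and 147 lower (1.27%) in tumours of 10 cGy hosts. The balance of higher and lower genes turned with the sham tumours used: 57.9% of the 349 were higher, against 68.6% of 830 with the 10 sham tumours whose description code starts with 5 and 26.0% of 288 with the 8 whose code starts with 6. That count was 547 without replicate 5 of the 10 cGy group and 601 without its replicate 9. The median difference over all genes was 0.01, and the 5th and 95th percentiles were -0.35 and 0.38. Differences of more than 1 log2 either way were found for 38 genes (0.329%), 19 higher and 19 lower (0.164% each), and these were 112 higher and 21 lower without replicate 1 of the 10 cGy group and 45 and 29 without its replicate 9. No gene had all 9 tumours of 10 cGy hosts above, or all below, every sham tumour. For 53 genes (0.459%) all 9 lay above the sham median, and for 52 (0.45%) all 9 lay below it.

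The arrays were alike in scale, with medians between 5.57 and 5.80, but the tumours were not alike. Replicate 1 of the 10 cGy group and replicate 16 of the sham group stood apart as a pair, and their profiles correlated at 0.977 over the 11555 genes. Scores of skeletal muscle or fat genes above 2 log2 occurred in 4 sham tumours and in no tumour of 10 cGy hosts. The description codes of the sham tumours start with 5 in 10 cases and with 6 in 8, and the labels do not say what the codes mean. Between those sets 1297 genes (11.2%) had an unadjusted p under 0.05 and 0 had an adjusted p under 0.05 (limma, lowest adjusted p 0.143). The first component of the probe sets without a gene symbol was above 0 in 3 of 9 tumours of 10 cGy hosts, in 8 of 10 sham tumours coded 5 and in 1 of 8 coded 6. With that component as a covariate 317 genes had an unadjusted p under 0.05 and 0 an adjusted p under 0.05. One pair of 10 cGy tumours (replicates 6 and 7) and 4 pairs of sham tumours share the stem of their code.

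The 12 genes with the smallest p among those higher in tumours of 10 cGy hosts had varied roles. Atad2b, a bromodomain ATPase gene on chromosome 12, had the smallest p of all genes (unadjusted 0.000599, adjusted 0.99996, limma). Its level ran from 8.34 through a median of 8.64 to 9.01 in tumours of 10 cGy hosts, against 7.94, 8.26 and 8.64 in sham tumours, a difference of 0.38 ± 0.10 (SE). All 9 lay above the sham median, although the ranges overlapped. Rfx7, which encodes a winged-helix transcription factor (chromosome 9), showed the same arrangement with 7.81, 8.16 and 8.45 at 10 cGy against 7.15, 7.67 and 8.93 in sham, a difference of 0.48 ± 0.15. Here the highest value of all 27 was a sham tumour's. The difference was 0.36 ± 0.10 for Vps54, a subunit of the complex that tethers vesicles at the Golgi, and 0.33 ± 0.10 for Pcf11, a factor of mRNA 3' end cleavage. Cnot4, a ubiquitin ligase that acts with the CCR4-NOT deadenylase, differed by 0.30 ± 0.09 and Phc3, a Polycomb repressive complex subunit, by 0.44 ± 0.14. Lpcat4, a lysophospholipid acyltransferase gene, differed by 0.73 ± 0.23, with 8 of 9 tumours of 10 cGy hosts above the sham median. The remaining genes of the top 12 in this direction were Tmem41b (0.43 ± 0.14), Zfp51 (0.44 ± 0.14), Vkorc1l1 (0.43 ± 0.14) and Zfp800 (0.27 ± 0.09), besides Chad. Ino80d, a subunit of the INO80 chromatin remodeller (0.33 ± 0.11), Bclaf3 (0.45 ± 0.15), Kdsr, an enzyme of sphingolipid synthesis (0.55 ± 0.19), and Nxf1, the main mRNA export receptor (0.25 ± 0.09), also had all 9 tumours above the sham median.

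Chad, which encodes chondroadherin, a leucine-rich matrix protein of cartilage, had both a small p and a large difference, 1.72 ± 0.50 (unadjusted p 0.00174, adjusted 0.99996, limma). Tumours of 10 cGy hosts spanned 4.24 to 9.35 with a median of 7.07, against 4.49 to 8.20 with a median of 5.19 in sham tumours. Replicates 2, 3, 6 and 7 of the 10 cGy group were the high ones, replicates 1 and 9 lay below the sham median, and a single sham tumour (replicate 9) reached 8.20. The other cartilage and bone matrix genes gave no such difference as a list. Of 11 kept members of 23 listed, 7 were higher and 4 lower, with a median of 0.13 that was 0.0028 without replicate 6 and 0.26 without replicate 2 of the 10 cGy group. Col9a1 (0.64 ± 0.32) and Col2a1 (0.38 ± 0.25, and 0.25 without replicate 6), collagens of cartilage, followed Chad in p.

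Cpm showed the largest difference of all genes, 1.79 ± 0.63, and encodes carboxypeptidase M, a membrane-bound enzyme that trims basic residues from peptides. It ran from 7.08 through 8.56 to 9.20 in tumours of 10 cGy hosts, against 4.17, 6.13 and 11.34 in sham tumours. All 9 lay above the sham median, in a narrower band (SD 0.84 at 10 cGy and 1.86 in sham), but individual sham tumours were higher still. The unadjusted p was 0.00803 (limma).

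**Figure D1:**
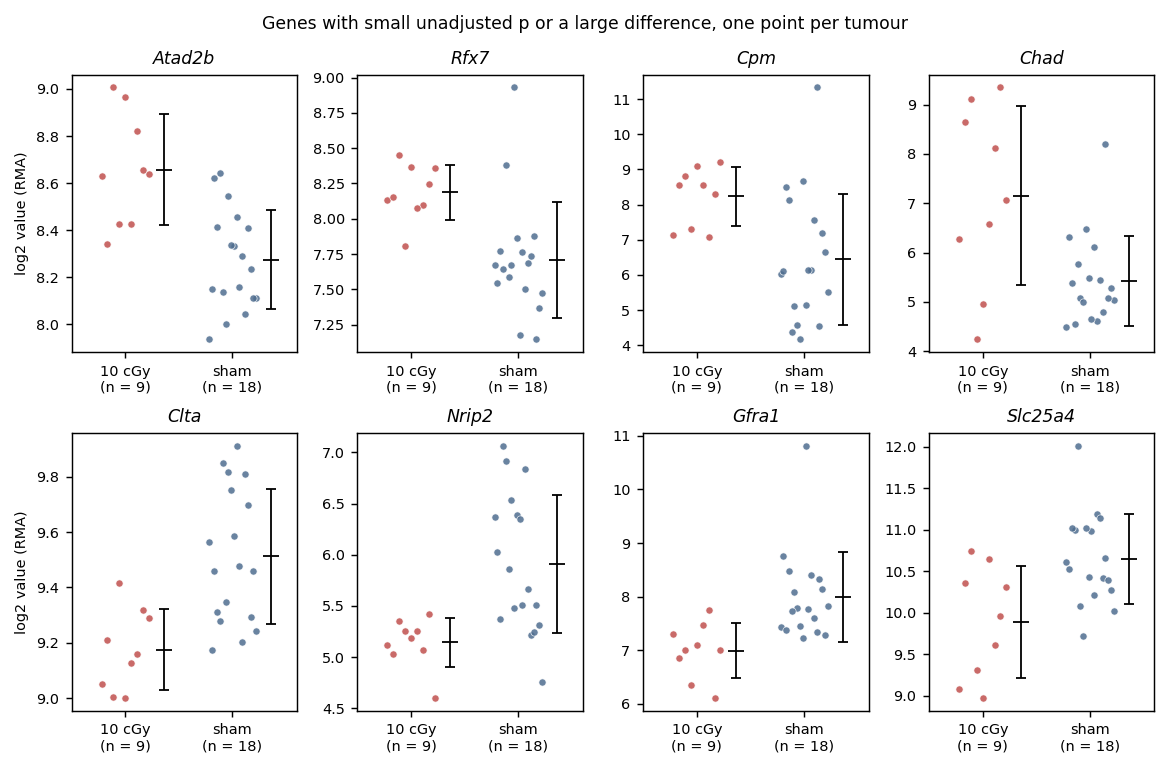
Log2 expression of 8 genes in each tumour, tumours of 10 cGy hosts (n = 9) left of sham tumours (n = 18). Points are tumours and bars are the mean ± SD. Atad2b, Rfx7 and Cpm have all 9 tumours of 10 cGy hosts above the sham median, Clta, Nrip2 and Gfra1 have all 9 below it, Chad and Slc25a4 have some on both sides, and in no panel are the groups separate.

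Lower levels in tumours of 10 cGy hosts were led by Clta, the gene of clathrin light chain A, a coat protein of endocytic vesicles. Clta ran from 9.00 through 9.16 to 9.42 at 10 cGy, against 9.17, 9.47 and 9.91 in sham, a difference of -0.34 ± 0.10 (unadjusted p 0.00188, adjusted 0.99996, limma). All 9 lay below the sham median. The same was true of Nrip2, a nuclear receptor interacting protein gene, with 4.60, 5.19 and 5.42 at 10 cGy against 4.75, 5.76 and 7.06 in sham and a difference of -0.77 ± 0.23. All 9 tumours of 10 cGy hosts were below the filter value of 5.68 for Nrip2, which was kept through 9 sham tumours above it. Gfra1, which encodes the receptor that binds the growth factor GDNF, ran from 6.10 through 7.00 to 7.74 at 10 cGy, against 7.22, 7.78 and 10.81 in sham, a difference of -1.0 ± 0.30. Its highest 10 cGy tumour lay just under the sham median, and 1 sham tumour carried the value of 10.81.

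The other 9 of the 12 genes with the smallest p in the lower direction included Slc25a4 and Gcdh on chromosome 8, of whose genes 27.6% were higher. Slc25a4, an ADP/ATP carrier of the inner membrane that is the main form in muscle, ran from 8.97 through 9.97 to 10.75 at 10 cGy, against 9.72, 10.57 and 12.01 in sham, a difference of -0.76 ± 0.23. Of the 9 tumours, 7 lay below the sham median. Further genes were Sdhb, an iron-sulphur subunit of succinate dehydrogenase (-0.49 ± 0.15), Mrpl2 of the mitochondrial ribosome (-0.33 ± 0.10), Nnt, the transhydrogenase that makes NADPH (-0.58 ± 0.20), and Gcdh, an acyl-CoA dehydrogenase of lysine breakdown (-0.51 ± 0.18). The remaining genes were Aga, a lysosomal amidase (-0.59 ± 0.19), Myo9b, an unconventional myosin (-0.52 ± 0.17), Arfgap1, which acts on the Golgi GTPase Arf (-0.26 ± 0.09), and Rnu3a (-0.60 ± 0.20). Rnu3a is a U3 small nucleolar RNA with near-identical copies in the mouse genome, so its probe set may read several. Itga2b (-0.39 ± 0.14), Mpv17l2 (-0.56 ± 0.20), Kif7 (-0.33 ± 0.13) and Cope, a subunit of the COPI coat (-0.56 ± 0.20), also had all 9 tumours below the sham median. Itga2b passed the filter value in 2 tumours of 10 cGy hosts and 12 sham tumours, and Kif7 in 4 and 14, so both were kept mainly through sham tumours.

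Epithelial genes leaned upward at 10 cGy, with wide overlap. Of 23 kept genes of epithelial junctions, 22 were higher and 1 lower, with a median difference of 0.50, against 52.2% higher and a median of 0.01 over all genes. A single member, the claudin gene Cldn8, had an unadjusted p under 0.05 (1.75% of all genes in this direction). Cldn8 encodes a tight junction protein of ion-tight epithelia, and ran from 4.91 through 8.62 to 9.20 at 10 cGy, against 4.65, 7.04 and 9.13 in sham, a difference of 1.28 ± 0.60 (unadjusted p 0.0435, limma). F11r, a junctional adhesion molecule gene (0.61 ± 0.35), Jup, the plakoglobin gene (0.59 ± 0.38), and Dsc2, a desmosomal cadherin gene (0.73 ± 0.51), came next in p.

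A few tumours of both groups lacked an epithelial profile. A list score is a tumour's mean over the list of its value minus the mean of the 27 tumours. The junction score ran from -2.71 through 0.86 to 1.28 at 10 cGy, against -2.80, 0.41 and 1.38 in sham, and lay below -2 in 1 of 9 tumours and in 4 of 18. The list's median was 0.89 without replicate 1 of the 10 cGy group and 0.35 without replicate 16 of the sham group. Replicate 1 had 5.68 for Epcam, a surface protein of epithelia, against 4.80 to 11.57 over the sham tumours, and the 10 cGy median was 11.24 against a sham median of 10.92. Its values for Cdh1, which encodes E-cadherin, Krt8 and Krt18 were 5.56, 7.01 and 6.38, each the lowest of the 10 cGy group. Cdh1 had a median of 11.12 at 10 cGy and 10.54 in sham.

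Luminal genes were arranged in the same way. Of 20 kept members, 17 were higher and 3 lower, with a median of 0.48 (0.91 without replicate 1 of the 10 cGy group and 0.29 without its replicate 2), and none had an unadjusted p under 0.05. Kit, the stem cell factor receptor of luminal progenitors and of mast cells, ran from 8.86 through 10.39 to 11.86 at 10 cGy, against 7.08, 9.64 and 11.55 in sham, a difference of 1.08 ± 0.53. Of these tumours 7 of 9 lay above the sham median. Foxa1, a pioneer factor of luminal cells, differed by 1.04 ± 0.70. Of the luminal keratins, Krt8 had medians of 12.10 at 10 cGy and 12.20 in sham, and Krt18 of 11.83 and 11.78.

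Basal genes had 13 higher and 6 lower of 19 kept, with a median of 0.18 that ran between 0.05 and 0.28 as tumours were left out. Krt5 spanned 5.52 to 13.10 at 10 cGy (median 11.67), against 4.93 to 13.32 in sham (median 9.58), and Krt14 spanned 5.25 to 12.88 (median 10.05), against 5.40 to 12.65 (median 9.56). Trp63, the transcription factor of basal cells, had medians of 9.35 at 10 cGy and 7.48 in sham. Each of these ranges covered nearly the whole scale of the gene in both groups. Mammary progenitor and stem genes had 15 higher and 4 lower of 19 (median 0.20), and Bcl11a, a zinc finger factor of progenitors, differed by 1.20 ± 0.69.

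Squamous and cornified genes separated tumours and not groups. Their score was above 2 in 1 of 9 tumours of 10 cGy hosts and in 4 of 18 sham tumours, and it reached 5.03 in replicate 5 of the 10 cGy group. The median over 9 kept genes was 0.11, and -0.58 without that tumour. Abca12, a lipid transporter of cornified skin, differed by 1.32 ± 0.91 (0.80 without replicate 5 and 0.75 without replicate 7 of the 10 cGy group). It passed the filter value in 5 tumours of 10 cGy hosts and 7 sham tumours, so it was kept partly through the higher group.

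The casein genes Csn2 and Csn1s2a were among the 6 largest higher differences, while their list was spread around 0. Csn2, the beta-casein gene, ran from 6.03 through 10.11 to 12.75 at 10 cGy, against 5.79, 7.99 and 13.22 in sham, a difference of 1.43 ± 0.90. All but replicate 1 of the 9 lay above the sham median. Csn1s2a, another casein gene, differed by 1.29 ± 1.08 (0.72 without replicate 9 of the 10 cGy group), and Fabp7, a fatty acid binding protein gene, by 1.31 ± 0.74 (0.85 without replicate 5). Csn1s2a passed the filter value in 7 tumours of 10 cGy hosts and 8 sham tumours, and Fabp7 in 5 and 6. Both were kept partly through the group where they are higher. Over the list of milk and alveolar genes 10 of 15 were higher, between -0.68 and 1.43, and 0 had an unadjusted p under 0.05 (limma). The median of 0.19 was 0.08 without replicate 6 of the 10 cGy group, 0.34 without replicate 7, and -0.12 against the sham tumours numbered 1 to 9 with the same 9 tumours of 10 cGy hosts.

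Hormone receptor genes did not shift together. Pgr, the progesterone receptor gene, was high in replicates 6 and 8 of the 10 cGy group and spanned 4.26 to 9.17 there (median 5.04), against 3.46 to 8.45 in sham (median 5.17). Esr1, the oestrogen receptor gene, differed by -0.45 ± 0.37, and Erbb2, a receptor tyrosine kinase gene amplified in some human breast cancers, had medians of 8.53 at 10 cGy and 8.50 in sham. Ghr, the growth hormone receptor gene, differed by -0.56 ± 0.22 and Ccnd1, the cyclin D1 gene, by 0.37 ± 0.15. Both had an unadjusted p under 0.05, 1 lower and 1 higher of 10 kept, against 1.27% and 1.75% of all genes. The list was chosen with earlier results of these data known, so these counts are no support for a shift. Of its 10 kept members 7 were higher, with a median of 0.18. Without replicate 6 of the 10 cGy group that median was 0.0028 and the difference of Esr1 -0.73.

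**Figure D2:**
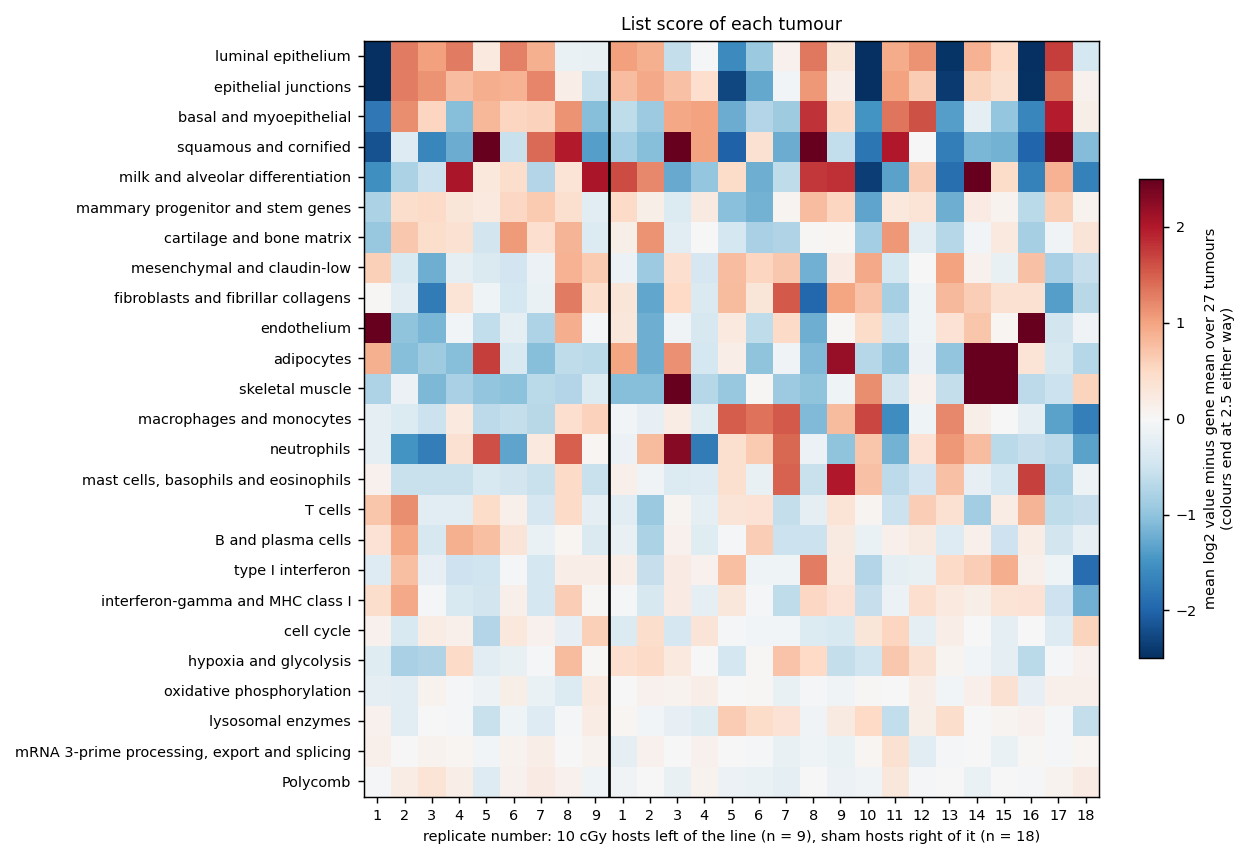
Scores of 25 gene lists (down the page) in each tumour, tumours of 10 cGy hosts left of sham tumours. Colour is the score in log2 units and ends at 2.5 either way. Replicate 1 of the 10 cGy group is low in luminal and junction genes like a few sham tumours, and the strong muscle scores lie in sham tumours.

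Mesenchymal and stromal genes gave small medians. Mesenchymal and claudin-low genes had 6 higher and 12 lower of 18 kept (median -0.12, and 0.05 without replicate 3 of the 10 cGy group). Fibroblast and fibrillar collagen genes had 4 higher and 15 lower of 19 (median -0.14, and 0.10 without the same tumour). Vim, the vimentin gene, had medians of 12.73 at 10 cGy and 12.85 in sham, and Col1a1, of the main fibrillar collagen, 11.14 and 11.29. Endothelial genes had a median of -0.07, which was -0.41 without replicate 1 of the 10 cGy group and 0.11 without replicate 16 of the sham group. Those tumours had the highest endothelial scores, 2.56 and 2.53, and Pecam1, an adhesion molecule of vessels, spanned 7.15 to 12.19 at 10 cGy and 7.57 to 12.16 in sham.

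Skeletal muscle genes were the lowest list. All 9 kept members were lower at 10 cGy, with a median of -1.36, against 47.8% of all genes below 0. Several of the 9 were kept mainly through sham tumours, so this count is no support. The filter value was passed for Myh4 in 2 tumours of 10 cGy hosts and 7 sham tumours, for Tnnt3 in 2 and 8, and for Atp2a1 in 3 and 8. With no filter, 21 of 22 members were lower, with a median of -1.07. Acta1, the skeletal actin gene, ran from 5.75 through 5.96 to 7.25 at 10 cGy, against 5.51, 6.74 and 13.07 in sham, a difference of -1.64 ± 0.78 (unadjusted p 0.045, limma). Myh4 (-1.62 ± 0.93) and Tnnt3 (-1.36 ± 0.80), of the contractile apparatus, Ckm, the muscle creatine kinase (-1.52 ± 0.79), and Atp2a1, the calcium pump of muscle (-1.36 ± 0.86), had differences of like size. The score ran from -1.13 through -0.78 to -0.15 at 10 cGy, against -1.07, -0.49 and 5.04 in sham, and the scores above 2 were those of sham replicates 3, 14 and 15. Without the 4 sham tumours of high muscle or fat scores the list's median was -0.30. Fat cell genes were arranged alike, with 1 higher and 11 lower of 12 kept and a median of -0.54, which was 0.10 without those 4 tumours and -0.92 without replicate 5 of the 10 cGy group. With no filter 14 of 15 fat cell genes were lower (median -0.41). Adipoq passed the filter value in 2 tumours of 10 cGy hosts and in 7 sham tumours. Adipoq, the adiponectin gene (-0.86 ± 0.65), Retn, the resistin gene (-0.91 ± 0.78, and -1.37 without replicate 5 of the 10 cGy group), and Plin4, a lipid droplet protein gene (-0.89 ± 0.56), led that list.

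Mast cell genes were low in nearly all tumours of 10 cGy hosts. Cpa3, the carboxypeptidase of mast cell granules, ran from 3.96 through 4.78 to 6.77 at 10 cGy, against 3.92, 5.71 and 10.98 in sham, a difference of -1.62 ± 0.71 (unadjusted p 0.0314, adjusted 0.99996, limma). All but replicate 8 of the 9 lay below the sham median. Only 1 tumour of a 10 cGy host was above the filter value of 5.68 for Cpa3, which was kept through 9 sham tumours above it, so its p is no support for the list. The difference was -2.15 against the sham tumours coded 5, -0.95 against those coded 6 and -1.55 without the 4 sham tumours of high muscle or fat scores. The tryptase gene Tpsab1 differed by -1.11 ± 0.54, again with replicate 8 highest at 6.85, and was kept in the same way. Tpsb2, Mcpt4 and Cma1, of further mast cell proteases, did not pass the filter on low values and were fitted without it, with differences of -0.95 ± 0.42, -1.33 ± 0.64 and -0.58 ± 0.30. Mcpt4 ran from 3.60 through 4.04 to 6.07 at 10 cGy, against 3.59, 5.03 and 9.97 in sham. Over the 27 tumours Pearson's r between pairs of Cpa3, Tpsab1, Tpsb2 and Mcpt4 lay between 0.92 and 0.98, which is a description of arrays that share these tumours. Tpsab1 and Tpsb2 are close relatives and their probe sets may read each other's transcripts. Of the 6 kept genes of the mast cell, basophil and eosinophil list 5 were lower (median -0.53), and the 1 higher gene was Kit, which is also a luminal gene. The mast cell receptor genes Fcer1a and Ms4a2 lay low in both groups, with medians of 3.22 and 3.42 at 10 cGy and 3.50 and 3.49 in sham.

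The promoters of Cpa3 and Mcpt4 are printed because these genes, on different chromosomes, were low in the same tumours. Each sequence is the 250 bases before the transcript start in RefSeq (GRCm38.p6), Cpa3 at chr3:20242182-20242431 and Mcpt4 at chr14:56062311-56062560, both on the minus strand and written 5' to 3'. Capitals mark GATAA, the core letters bound by GATA factors, searched on both strands as GATAA or TTATC.
Cpa3: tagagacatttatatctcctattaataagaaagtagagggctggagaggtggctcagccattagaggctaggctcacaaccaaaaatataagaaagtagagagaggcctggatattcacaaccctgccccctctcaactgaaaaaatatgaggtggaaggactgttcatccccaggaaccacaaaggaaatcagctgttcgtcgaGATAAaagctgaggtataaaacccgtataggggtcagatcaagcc
Mcpt4: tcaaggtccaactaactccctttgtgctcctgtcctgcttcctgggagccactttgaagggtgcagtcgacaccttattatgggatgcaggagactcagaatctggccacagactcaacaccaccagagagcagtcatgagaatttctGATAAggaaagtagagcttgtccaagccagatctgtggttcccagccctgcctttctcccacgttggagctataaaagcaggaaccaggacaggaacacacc
Each window holds 1 GATAA, which begins at position -45 in Cpa3 and at -102 in Mcpt4, counted from the transcript start. Of 32851 mouse promoter windows of this length 22.6% hold the letters on either strand. A match of letters does not show binding.

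Other immune genes differed less. Ptprc, the CD45 gene of all leukocytes, had medians of 9.00 at 10 cGy and 9.30 in sham. All 9 kept T cell genes were higher (median 0.25, and 0.11 without replicate 2 of the 10 cGy group), among them Cd3e of the T cell receptor complex, which ran from 6.18 through 7.05 to 9.09 at 10 cGy, against 5.43, 6.68 and 7.99 in sham, a difference of 0.60 ± 0.32 (0.37 without replicate 2 of the 10 cGy group). Bcl11b, a T cell transcription factor gene, differed by 0.65 ± 0.34 (0.38 without replicate 5). Cd3d, another chain of the same complex, was below the filter and had medians of 4.42 at 10 cGy and 4.63 in sham. It was the 1 lower gene of 16 on the list when no filter was used. All 7 kept B and plasma cell genes were higher too, with a median of 0.42. Pou2af1, a coactivator of B cells, ran from 4.96 through 6.32 to 7.93 at 10 cGy, against 4.46, 5.45 and 9.40 in sham (0.79 ± 0.43), and Cd79b and Tnfrsf13c differed by 0.42 ± 0.32 and 0.28 ± 0.15. Pou2af1 passed the filter value in 6 tumours of 10 cGy hosts and 7 sham tumours, and Tnfrsf13c in 7 and 7. Both were kept partly through the group where they are higher, so the count of 7 kept genes is no support. Cd79a and Ms4a1, defining B cell genes, were below the filter, with medians of 5.17 and 4.66 at 10 cGy and 4.40 and 4.21 in sham, and differed by 0.62 ± 0.28 (unadjusted p 0.0359, limma) and 0.53 ± 0.27 in the fit without it. In that fit 17 of 18 B and plasma cell genes were higher. None of the T cell or B cell genes kept had an unadjusted p under 0.05.

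Macrophage genes leaned the other way, with 2 higher and 19 lower of 21 kept and a median of -0.25. Cd163, a scavenger receptor gene of tissue macrophages, ran from 4.54 through 5.23 to 8.04 at 10 cGy, against 4.59, 6.25 and 10.04 in sham, a difference of -1.07 ± 0.56. It passed the filter value in 2 tumours of 10 cGy hosts and 12 sham tumours. Lyve1, of macrophages and lymphatic vessels, differed by -0.91 ± 0.68 and Cd68 by -0.37 ± 0.31. Adgre1, the F4/80 gene, had medians of 8.60 at 10 cGy and 8.94 in sham, and C1qa and Csf1r had 9.46 and 9.59 at 10 cGy against 9.71 and 9.81 in sham. The macrophage score varied less among tumours of 10 cGy hosts (SD 0.49) than among sham tumours (SD 1.08), and its 10 cGy range lay inside the sham range. The list's median was -0.68 against the sham tumours coded 5 and 0.28 against those coded 6. Neutrophil genes had 2 higher and 10 lower of 12 kept (median -0.31, which was -0.09 without replicate 3 of the 10 cGy group and 0.11 against the sham tumours coded 6), and S100a8, a calcium-binding protein of neutrophils, spanned 4.40 to 10.99 at 10 cGy and 5.01 to 10.98 in sham.

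Interferon genes split by class. Type I interferon genes had 2 higher and 16 lower of 18 (median -0.15), with Isg15 at -0.47 ± 0.23 and Mx1 at -0.36 ± 0.24, and their median was 0.02 without the 4 sham tumours of high muscle or fat scores. Isg15 passed the filter value in 3 tumours of 10 cGy hosts and 12 sham tumours. Interferon-gamma and MHC class I genes had 15 higher and 3 lower of 18 (median 0.13, which was 0.01 without replicate 2 of the 10 cGy group and 0.04 without sham replicate 18). Cd274, which encodes the checkpoint ligand PD-L1, ran from 6.99 through 7.31 to 8.16 at 10 cGy, against 5.19, 6.90 and 8.58 in sham, a difference of 0.57 ± 0.31. All 9 lay above the sham median. Inflammatory cytokine genes had 5 higher and 8 lower of 13 (median -0.17), and their median was 0.13 against the sham tumours coded 6, -0.49 against those coded 5 and 0.02 without replicate 6 of the 10 cGy group.

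**Figure D3:**
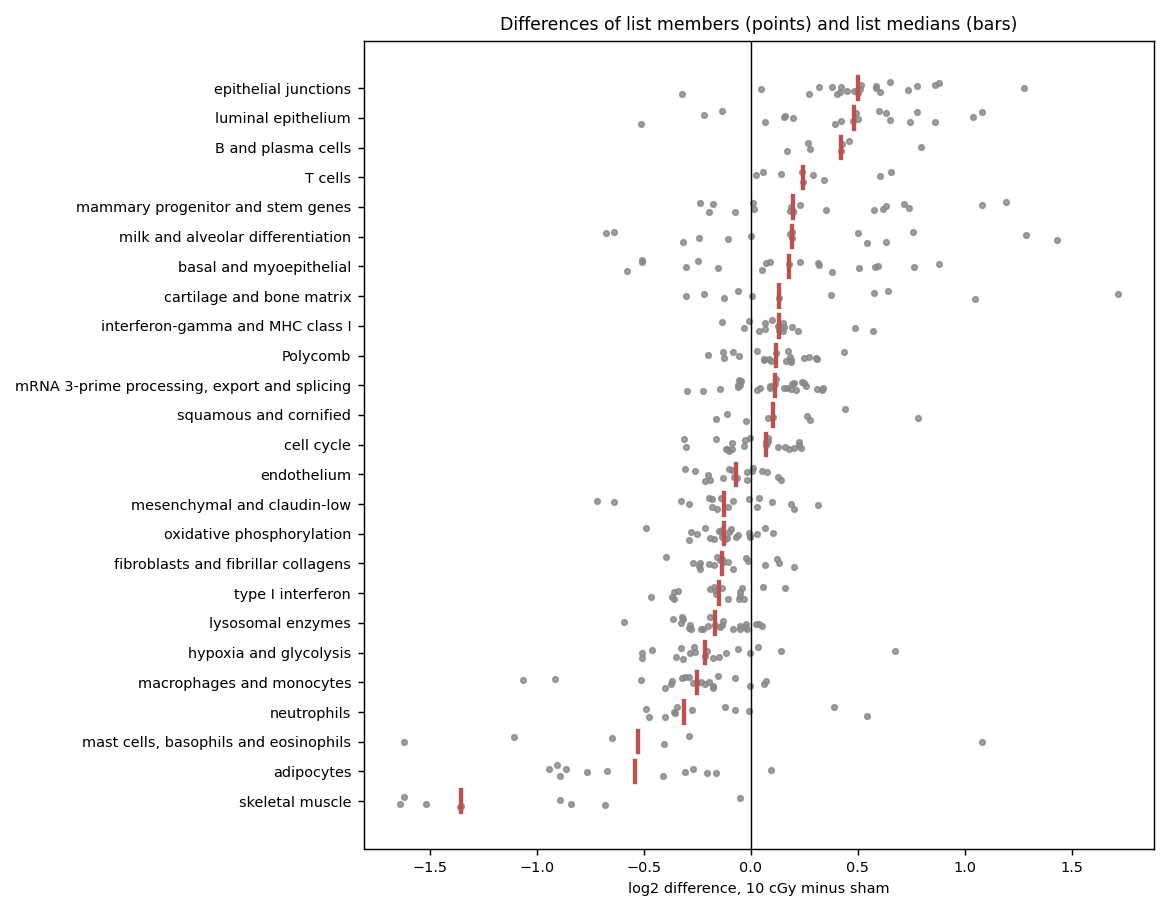
Difference of each kept member (points) and median of the list (bars), 10 cGy minus sham, in log2 units. Junction and luminal genes have medians of 0.50 and 0.48, skeletal muscle -1.36, fat cell genes -0.54, and most pathway lists lie within 0.25 of 0.

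Genes of mRNA 3' processing, export and splicing held the most members with a small p. Of 27 kept genes 19 were higher and 8 lower, with a median of 0.12. At an unadjusted p under 0.05, 6 were higher, against 1.75% of all genes. The lists were chosen with earlier results of these data known, so the count of 6 is no support for a shift of the list. That count was 4 when 1 of several tumours of either group was left out, 2 against the sham tumours coded 6 and 9 with array weights. Beside Pcf11 and Nxf1, whose 10 cGy tumours ran from 10.41 through 10.56 to 11.04 against 10.02, 10.39 and 10.70 in sham, the members with the smallest p were Clk4, a kinase of splicing factors (0.24 ± 0.09), and Tra2a, a splicing regulator (0.34 ± 0.14). Pcf11 had 8 of 9 tumours of 10 cGy hosts above the sham median. Polycomb genes had 16 higher and 5 lower of 21 (median 0.12), with Mtf2 and Pcgf2 each at 0.31 ± 0.16 after Phc3.

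Genes of oxidative phosphorylation were mostly lower, 21 of 24 kept, with a median of -0.13 that was -0.08 without replicate 8 of the 10 cGy group. Sdhb ran from 8.79 through 9.12 to 9.75 at 10 cGy, against 8.89, 9.63 and 10.43 in sham, and Ndufa1 of complex I and Sdha of complex II differed by -0.29 ± 0.12 and -0.21 ± 0.11. Members lower at an unadjusted p under 0.05 numbered 2 here, against 1.27% of all genes. Mitochondrial carrier, TCA cycle and acyl-CoA genes had 17 of 27 lower (median -0.08, and -0.03 without replicate 8 of the 10 cGy group) and 4 lower at an unadjusted p under 0.05. These were Slc25a4 and Gcdh, described above, Slc25a1, the citrate carrier (-0.30 ± 0.11), and Idh2, the isocitrate dehydrogenase of the matrix (-0.42 ± 0.18). Both lists were chosen with earlier results of these data known, so their counts of small p are no support for a shift. Of the mitochondrial ribosome 14 of 25 genes were lower with a median of -0.07, which was 0.03 against the sham tumours coded 5, -0.14 against those coded 6 and 0.0055 without sham replicate 15. The list was led by Mrpl2 and Mrpl54 (-0.37 ± 0.13). Muscle is rich in mitochondria, and its genes were high in 3 sham tumours. Without the 4 sham tumours of high muscle or fat scores the median of the oxidative phosphorylation list was -0.09, and the differences of Slc25a4 and Sdhb were -0.81 and -0.45. With the muscle score as a covariate the medians were -0.06 for oxidative phosphorylation and 0.02 for the mitochondrial ribosome. Slc25a4 and Sdhb then differed by -0.73 and -0.38. Whether muscle content accounts for the lower mitochondrial genes was not tested.

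Lysosomal enzyme genes had 22 lower and 3 higher of 25, with a median of -0.17, which was -0.08 without replicate 5 of the 10 cGy group and -0.01 against the sham tumours coded 6. Aga was the member with the smallest p, and the cathepsin genes Ctsz and Ctsl, abundant in macrophages, differed by -0.32 ± 0.19 and -0.32 ± 0.21 (Ctsl -0.19 without replicate 2 of the 10 cGy group). Genes of vesicle coats and transport had 8 higher and 19 lower of 27 and a median of -0.05, with Clta and Cope on the lower side and Vps54 on the higher. Ribosomal protein genes had 19 lower of 25, but a median of only -0.04.

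Pathways tied to radiation and growth gave medians near 0. The 20 kept p53 target genes were 10 higher and 10 lower (median 0.02), and Cdkn1a, a cell cycle inhibitor and p53 target, had medians of 9.88 at 10 cGy and 9.54 in sham. Cdkn2a had 7.34 at 10 cGy and 7.76 in sham. DNA damage and repair genes had 8 higher and 11 lower (median -0.02), with Nbn, of the break-sensing MRN complex, at -0.17 ± 0.10 and Parp1 at -0.23 ± 0.17 (-0.13 without replicate 5 of the 10 cGy group). Rrm2b, a p53-inducible ribonucleotide reductase subunit gene, differed by 0.28 ± 0.19 (0.13 without replicate 9). Cell cycle genes had 12 higher and 11 lower (median 0.07, from -0.02 without replicate 9 of the 10 cGy group to 0.17 without replicate 5), with Mki67, the proliferation marker gene, at 0.20 ± 0.12 and Cdc20 at -0.31 ± 0.19 (-0.46 without replicate 9). TGF-beta target genes had 12 higher and 7 lower (median 0.07, and 0.15 without replicate 5 of the 10 cGy group), Tgfb1 itself had medians of 10.04 at 10 cGy and 10.05 in sham, and the TGF-beta binding proteins Ltbp1 and Ltbp2 ran in opposite directions (-0.66 ± 0.37 and 0.57 ± 0.30). Bhlhe40, a stress-responsive repressor gene, differed by 0.55 ± 0.29.

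Notch genes had 11 higher and 5 lower of 16 (median 0.17, and 0.05 without replicate 1 of the 10 cGy group). Hes1, a transcriptional target of Notch, ran from 7.21 through 8.64 to 9.24 at 10 cGy, against 7.04, 8.17 and 8.89 in sham (0.46 ± 0.22), and 8 of 9 lay above the sham median. Against the sham tumours coded 5 and 6 the Notch median was 0.48 and -0.06, and the difference of Hes1 0.81 and 0.02. Wnt genes had 11 higher and 7 lower of 18 (median 0.15, and 0.04 without replicate 5 of the 10 cGy group), with Rnf43, a feedback inhibitor of Wnt receptors, at 0.83 ± 0.53 (0.56 without replicate 2 of the 10 cGy group). Hypoxia and glycolysis genes had 3 higher and 16 lower of 19 (median -0.22, which was -0.09 without replicate 2 of the 10 cGy group and -0.36 without its replicate 8), with P4ha1, a collagen prolyl hydroxylase gene (-0.46 ± 0.25), and Hk2, a hexokinase gene (-0.51 ± 0.29), on one side and Egln3, an oxygen-sensing hydroxylase gene (0.67 ± 0.42), on the other. Immediate early genes had a median of -0.02, with Jund at -0.31 ± 0.15.

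Position in the genome set some of the leading genes together. Of the 11555 genes 11546 were placed on a chromosome by the RefSeq table (GRCm38.p6). Chromosome 8 held 602 of them, of which 27.6% were higher at 10 cGy against 52.2% of all genes, and its median difference was -0.11. At an unadjusted p under 0.05, 26 of its genes were lower (4.32%, against 1.27% of all genes) and 0 were higher. The lower count was 13 without replicate 2, 14 without replicate 3 and 17 without replicate 7 of the 10 cGy group, and 41 without replicate 9. Against the sham tumours coded 5, 14 genes of the chromosome were higher and 29 lower with 38.4% above 0, and against those coded 6, 1 was higher and 23 lower with 18.6% above 0. Against sham replicates 1 to 9, 16 were higher and 27 lower, with a median of -0.04. These tumours' own medians over chromosome 8 were -0.43, -0.33 and -0.29 for replicates 2, 3 and 7, below -0.25 in 3 of 9 tumours of 10 cGy hosts and in 3 of 18 sham tumours. Medians above 0.25 were found in 0 of 9 and in 3 of 18. Subtracting each tumour's chromosome medians left 7 genes of chromosome 8 higher and 7 lower at an unadjusted p under 0.05. That step removes any shift shared by a whole chromosome, so a more even balance was set by the step itself.

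Slc25a4, Aga, Myo9b, Gcdh, Cope and Mpv17l2, named above, all lie on chromosome 8. Pik3r2, a regulatory subunit of phosphoinositide 3-kinase (-0.63 ± 0.25), Tnks, the tankyrase gene (-0.42 ± 0.17), and Jund lie there as well, and were singled out after their values were seen. In all 3 of these, each of the 9 tumours lay below the sham median. Sham replicate 4 had a run of 101 neighbouring high genes on this chromosome, from Mtus1 to Gtpbp3, which held Slc25a4, Aga, Myo9b, Cope, Mpv17l2, Pik3r2 and Jund, and the lower count on chromosome 8 was 28 without that tumour. Other chromosomes with a lean were 16, 15 and 4 (33.9%, 36.2% and 41.2% higher) and, on the other side, 12, 1 and 9 (64.8%, 63.8% and 63.4% higher). Genes lower at an unadjusted p under 0.05 made up 3.70% of chromosome 16, 3.11% of 15 and 2.97% of 4, against 1.27% of all genes. A raised share of lower genes was thus not particular to chromosome 8. Genes higher at that p made up 3.11% of chromosome 12, 2.35% of 1 and 2.95% of 9, against 1.75% of all genes.

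**Figure D4:**
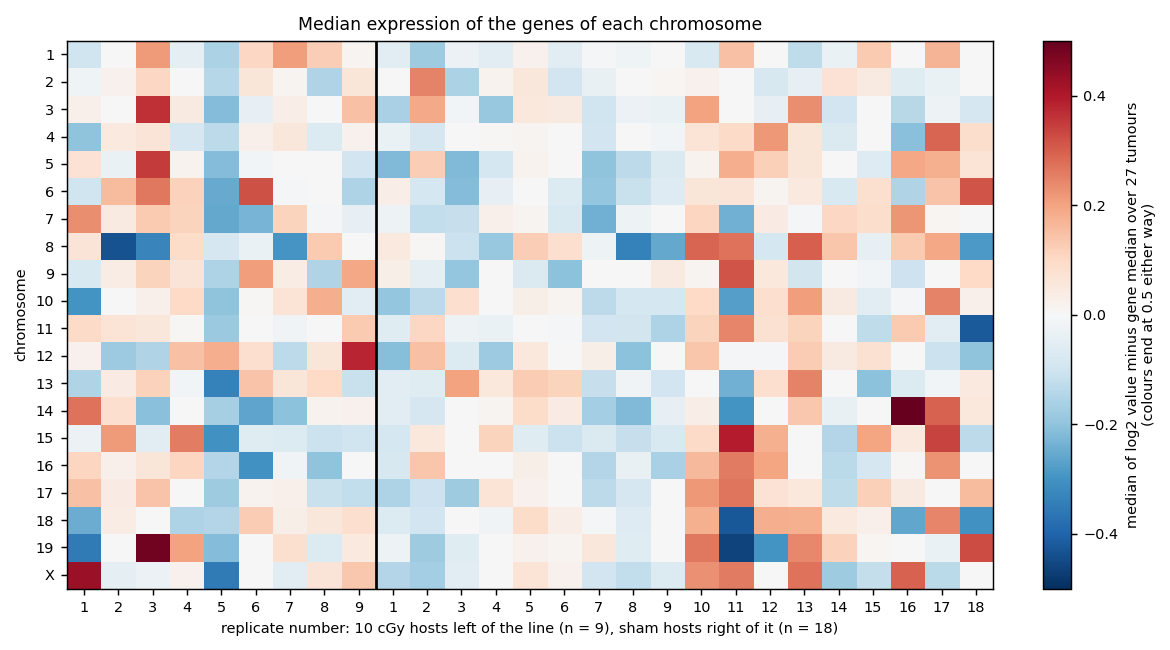
Median over the genes of each chromosome of the log2 value minus the gene's median over 27 tumours, for each tumour, tumours of 10 cGy hosts left of sham tumours. Colour ends at 0.5 either way. Chromosome 8 is low in replicates 2, 3 and 7 of the 10 cGy group and in 3 sham tumours, and high in 3 sham tumours.

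Runs of neighbouring genes were high or low together in single tumours. A run was a stretch where the median of 15 neighbouring genes, each taken relative to its median over the 27 tumours, passed 1 or -1 log2. Tumours of 10 cGy hosts had 97.4 ± 44.0 genes in such runs (SD, n = 9, from 36 to 185), against 100.7 ± 70.9 in sham tumours (SD, n = 18, from 0 to 227). The difference of -3.28 genes did not pass the test (exact permutation test over 4686825 arrangements, two-sided, p = 0.901). There were 29 runs at 10 cGy, 4 of them low, and 66 in sham, 16 of them low. DNA was not measured, so a run describes expression alone.

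Every tumour of a 10 cGy host had at least 1 run, and several held well-known growth genes. In replicate 4 a run of 58 genes on chromosome 6, from Thsd7a to Akr1b10, held Met, the receptor of hepatocyte growth factor, at 12.54. Replicate 9 had a run of 30 genes at the same place, from Dlx5 to Ptprz1, with Met at 12.74, and 3 sham tumours also had a high run over Met. Over all tumours Met ran from 7.20 through 9.14 to 12.74 at 10 cGy, against 7.64, 9.48 and 12.82 in sham. Replicate 8 had a run of 36 genes on chromosome 9, from Msantd4 to Med17, with a median of 1.71, that held Birc2, an inhibitor of apoptosis, at 11.61 and Yap1, a coactivator of the Hippo pathway, at 12.26. A high run over both genes was seen in 4 sham tumours. Birc2 otherwise had a median of 7.49 at 10 cGy and 7.60 in sham, and Yap1 9.63 and 9.72.

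High runs at the start of chromosome 8 were found in 4 of 9 tumours of 10 cGy hosts, replicates 2, 3, 6 and 7, and held Insr, the insulin receptor gene, and Irs2, its substrate. Runs that overlapped these were found in 5 of 18 sham tumours. Insr lay in such a run in 2 of 18 sham tumours and Irs2 in 4. Insr ran from 8.74 through 10.11 to 12.36 at 10 cGy, against 8.64, 9.48 and 12.17 in sham, and Irs2 from 6.29 through 7.99 to 10.71, against 6.38, 7.56 and 10.57. Of these tumours replicates 2, 3 and 7 were the ones whose chromosome 8 median was low. The recurrence was noticed in these data and was not tested. Replicates 2, 3, 6 and 7 were also the tumours of the 10 cGy group with the highest Chad values. This too was noticed in these data and was not tested. Sham replicate 9, the sham tumour with the highest Chad value, had 0 runs.

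Other runs were seen in a single tumour of the 10 cGy group each. Replicate 9 had a run on chromosome 15 from 9130401M01Rik to Slc45a4, with 37 genes, that held Myc, the growth-promoting transcription factor gene, at 12.04, the highest Myc value of the 27 tumours. Myc otherwise had medians of 10.90 at 10 cGy and 10.93 in sham, and no sham tumour had a run over it, although 1 had a run that overlapped this one. Replicate 2 had a run of 43 genes on chromosome 4, from Mycl to Psmb2, in which Rspo1, a ligand that enhances Wnt signalling, reached 12.11, against 5.09 to 9.27 in sham. Replicate 7 had runs on chromosome 11 from Cd300c to Srsf2 (51 genes, median 1.20), on chromosome 14 from Il17rd to Syt15 (45 genes) and on chromosome 1 from Pam to En1 (28 genes). Replicate 5 had a run of 38 genes on chromosome 9 from Cmtm8 to Abhd5, with a median of 1.21. The runs on chromosome 11 and on chromosome 9 each overlapped a run in 1 sham tumour, and those on chromosomes 4, 14 and 1 overlapped none. In replicate 1 the low run on chromosome 15 held Krt18, with 8 of its 17 genes below -1 log2. The low run on chromosome 18 held the desmosomal cadherin gene Dsg2, with 10 of its 22 genes below -1. Another low run of that tumour lay on chromosome 6 from Ndufb2 to Ezh2, with 8 of its 19 genes below -1.

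**Figure D5:**
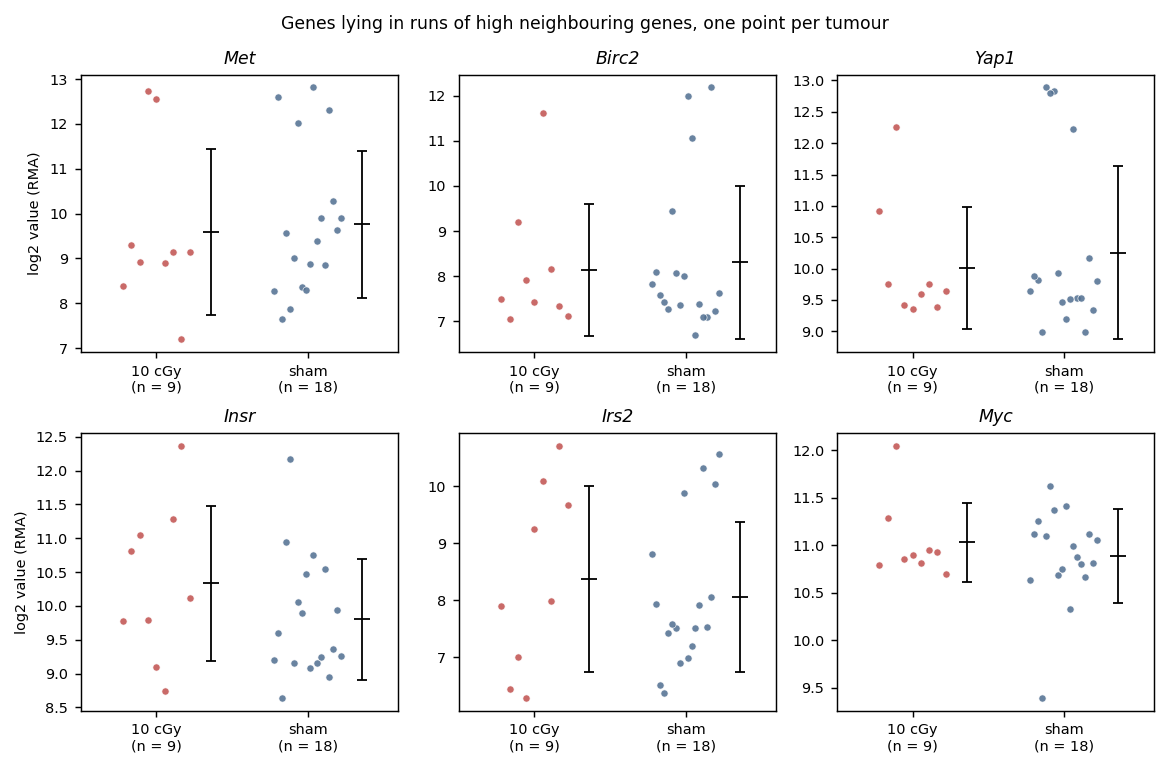
Log2 expression of 6 genes that lay in high runs, tumours of 10 cGy hosts left of sham tumours. Points are tumours and bars are the mean ± SD. Met, Birc2 and Yap1 are high in a few tumours of both groups, Insr and Irs2 in 4 tumours of 10 cGy hosts and a few sham tumours, and Myc is highest in 1 tumour of a 10 cGy host.

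By correlation, tumours of 10 cGy hosts were about as near to sham tumours as to each other. The nearest tumour by correlation over the 11555 genes was another 10 cGy tumour for 1 of 9 (30.8% of the other tumours are of that group), and was another sham tumour for 12 of 18 sham tumours (65.4%). The median correlation was 0.851 within the 10 cGy group, 0.832 within sham and 0.843 between groups, which is a description over genes that are not independent. Replicates 6 and 7 of the 10 cGy group, which share a code stem, correlated at 0.882, which ranked 67 among 351 pairs, and sham replicates 5 and 6 at 0.961, which ranked 2. The spread between tumours was alike in both groups. The median SD was 0.429 at 10 cGy and 0.435 in sham, 48.0% of genes had the larger SD at 10 cGy, and 1303 genes at 10 cGy and 1336 in sham had an SD over 1.

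In 4 of the 5 genes with the largest ratio of SDs, 1 tumour of a 10 cGy host stood apart. Asxl2, a chromatin regulator gene, was at 6.55 in replicate 7 of the 10 cGy group, with 8.35 to 8.92 in sham, and Tbl1x, a corepressor subunit gene on the X chromosome, was at 7.18 in the same tumour, with 9.93 to 10.80 in sham. Neither lay in a run. Efr3a was at 12.25 in replicate 9, with 9.44 to 10.31 in sham, and Inpp5b at 9.71 in replicate 2, with 7.54 to 8.33 in sham, and both lay in runs of those tumours. The genes with the smallest ratio included Cox6a2 and Trdn, of muscle, and Angptl7, whose sham values reached 10.00, 11.07 and 10.06, against highest values of 6.00, 6.75 and 5.92 at 10 cGy.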

How the data were processed

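The values deposited by the authors are log2 expression of probe sets on single-colour Affymetrix arrays, 1 array per tumour, and per the submitters' processing notes they were made with RMA in the oligo package (background correction, quantile normalization and summary are the steps of RMA). No tool version is given in the sources used here. Per the labels' protocols, total RNA was extracted with Trizol, amplified and biotin-labelled. Of 35556 probe sets 21218 carried 1 gene symbol, 1881 several and 12457 none. The probe set with the highest mean stood for each of 18820 genes, of which 1386 had several. A gene was kept where it exceeded the median of the 27 arrays, 5.68, in at least 9 tumours. Trp53 was not analysed here.

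Tumours were grouped by title. The 9 and 18 tumours were fitted with limma 3.58.1 in R 4.3.3 (lmFit and eBayes, no covariate, 2-sided, Benjamini-Hochberg over all genes kept). The number of arrays limits the precision, and the median SE of a difference was 0.18 log2. The fit was tested on simulated data. Gene lists were described by counts and medians with no test, and a list score used kept members. Runs used gene order from RefSeq (GRCm38.p6), and numbers of genes in runs were compared by an exact permutation test. Gene symbols came from the platform annotation, and RefSeq held the gene identifier of 21185 such probe sets. The members, the gene lists and the rules were chosen with earlier results of these data known.

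Genes were named where they had the 12 smallest p or the 6 largest differences in a direction, the smallest p in a described list, all 9 tumours of 10 cGy hosts on one side of the sham median (up to 10 by p), the 5 largest or smallest SD ratios, an end or peak of a run, or were on a fixed list of cell type and signalling genes. Chromosome 8 genes and genes inside runs were chosen after their values were seen. Alternatives covered the filter, scaling, spread, array weights, sham subsets, blocks, covariates and leaving out each tumour. Replicate numbers gave no sign of pairing, as same-numbered tumours' deviations from the group means correlated between -0.27 and -0.016. Single tumours differ widely in kind, so these correlations cannot exclude a shared origin.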

Additional observations from a re-analysis of the deposited data

Results flagged for a closer look

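In the 9 tumours of 10 cGy hosts, a value was picked out where its gap to the nearest other tumour, divided by the range, was above Dixon's critical value for 9 samples. The 18 sham tumours were not tested. Of 131 genes 28 were picked out, and of 44 list scores 4. Chance alone picks out about 1 in 20 groups, but many of the genes were named because 1 tumour stood apart (SD ratios, runs), so their count is not to be read against it.

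Replicate 1 was low in Epcam (5.68), Cdh1 (5.56), Krt8 (7.01), Krt18 (6.38), Cldn8 (4.91), Csn2 (6.03) and Lcn2 (10.04), high in Egfl7 (11.12), an endothelial gene, and low in the scores of luminal genes (-3.15), junction genes (-2.71), TGF-beta targets (-0.43) and Wnt genes (-1.41). Replicate 5 was apart in Retn (9.93), Mtf2 (8.16), Mki67 (9.49) and S100a8 (10.99), and it had the highest squamous score.

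Replicate 8 was apart in the mast cell genes Cpa3 (6.77) and Tpsab1 (6.85), which were its highest relative to the other tumours of 10 cGy hosts, in Cd274 (8.16), in Birc2 (11.61), which lay in its run on chromosome 9, and in Nrip2 (4.60). Replicate 9 was apart in Efr3a (12.25) and Myc (12.04), both in its run on chromosome 15, and in F11r (8.95), Ctsz (12.08), Hes1 (7.21) and Cdkn2a (9.11).

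Replicate 7 was low in Tbl1x (7.18) and Asxl2 (6.55), neither of which lay in a run. Replicate 2 was apart in Arfgap1 (8.43), replicate 3 in Nxf1 (11.04) and replicate 4 in Kif7 (4.95).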

How the results depend on the processing

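No gene passed an adjusted p of 0.05 under any of 45 alternatives, of which 27 left out 1 tumour (limma, lowest adjusted p 0.267). The number of genes at an unadjusted p under 0.05, 349 in the comparison as reported, was 565 with no filter on low values, 864 with array weights, 830 against the sham tumours coded 5 and 234 to 601 with 1 tumour left out. With the replicate block it was 738, and 895 for the same tumours (replicates 1 to 9 of both groups) with no block, which gives no sign of pairing by number. The share of such genes that were higher, 57.9% as reported, was 76.4% with the block and 76.5% for the same tumours without it, 68.6% and 26.0% against the sham tumours coded 5 and 6, 41.3% with the component of probe sets without a symbol as a covariate, 46.0% without the sham tumours of high muscle or fat scores, and 46.2% to 71.3% with 1 tumour left out. Differences of 10 and 27 of the 98 named genes moved by over 1.5 times or turned against the sham tumours coded 5 and 6. Genes in runs differed by 19.2 with a window of 25 genes (exact permutation p 0.456), the opposite sign to the window of 15. Of 98 named genes, 5 of 4290 recomputed differences turned in sign: Atp2a1 to 0.16 and Tnnt3 to 0.0518 with the muscle score as a covariate, Retn to 0.0496 without the sham tumours of high muscle or fat scores, and Cd68 to 0.0298 and Ctsz to 0.0616 against the sham tumours coded 6. The cause was not tested. None of 1979 recomputed list medians moved by over 1 SD between tumours, but 137 turned in sign, in 28 of 44 lists. That SD is a wide limit and gives no measure of stability. The skeletal muscle median stayed within it when it went from -1.36 to -0.30 without the sham tumours of high muscle or fat scores. With 9 tumours against 18 of such varied kinds, differences well above the median SE of 0.18 log2 were not detected. Even those of Cpm (1.79) and Chad (1.72), whose own SEs were larger than the median, did not pass the threshold.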

Other observations

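The 12457 probe sets without a gene symbol gave 0 calls between tumours of 10 cGy hosts and sham tumours at an adjusted p under 0.05 (limma, lowest adjusted p 0.149). At an unadjusted p under 0.05, 338 were higher and 229 lower, 4.55% of those tested.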
